A study of Mus musculus with 4 samples.

Results

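The embryonic and adult globin genes of the mouse were followed through single-cell RNA sequencing of E10.5 hearts. They are 7 genes chosen by symbol, of the 32285 genes in the files: *Hbb-y*, *Hbb-bh1*, *Hbb-bt* and *Hbb-bs* of the beta type and *Hba-x*, *Hba-a1* and *Hba-a2* of the alpha type. All 7 passed the filter on low counts in each of the 5 cell classes fitted below. The assay was the droplet-based 10x Genomics method, in which a unique molecular identifier (UMI) marks each captured transcript, so that copies of 1 transcript made in amplification are counted once. As each UMI stands for a transcript end, levels of different genes are compared without scaling for length. The control hearts, labelled Tie2flfl, carry 2 floxed alleles of *Tie2* (gene symbol *Tek*, a receptor tyrosine kinase of endothelial cells) and, by their label, no Cre. The *Tie2-cko* hearts, labelled Nfatcre-Tie2flfl, carry the same alleles and *Nfatc1-Cre*, which the study uses to delete *Tie2* in the endocardium, the inner lining of the heart. There were 2 libraries per genotype, named here by the replicate numbers of their labels: 5 and 7 for control, 6 and 8 for *Tie2-cko*. The whole heart-forming region was dissected, and the methods speak of 2 hearts per genotype from the same litter. Libraries of control and mutant hearts matched by somite number were pooled for sequencing, without a statement of which libraries these were.

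Haemoglobin is a tetramer of alpha-type and beta-type chains, each holding a haem group that binds oxygen. The first red blood cells of the embryo, the primitive erythroid cells, arise in the yolk sac, enter the circulation when the heart starts to beat and mature there while still nucleated. They are known for embryonic globins, and as they mature the balance moves from *Hbb-bh1* (beta-h1) to *Hbb-y* (epsilon-y) at the beta locus and from *Hba-x* (zeta) to the adult alpha genes at the alpha locus. Definitive red blood cells, which come later from erythro-myeloid progenitors and the fetal liver, carry mainly the adult genes *Hbb-bs*, *Hbb-bt*, *Hba-a1* and *Hba-a2*.

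By the gene annotation of GRCm38, the beta-type genes lie on chromosome 7 over 40693 bases, from 103812524 to 103853216 on the reverse strand. In the order of transcription they are *Hbb-y* (103851749 to 103853216), *Hbb-bh1* (103841637 to 103843164), *Hbb-bs* (103826534 to 103828096) and *Hbb-bt* (103812524 to 103813996). The alpha-type genes lie on chromosome 11 over 20899 bases on the forward strand, as *Hba-x* (32276400 to 32278116), *Hba-a1* (32283511 to 32284465) and *Hba-a2* (32296489 to 32297298). All are protein-coding. Both loci therefore start with an embryonic gene and end with adult ones. The 250 bases before the RefSeq start of transcription are shown for 5 genes whose levels in red blood cells are compared below, to set the leading embryonic gene of each locus beside adult ones. Positions are on GRCm38.p6, and the windows are chr7:103853208-103853457, chr7:103827929-103828178 and chr7:103813924-103814173 on the reverse strand and chr11:32276350-32276599 and chr11:32283422-32283671 on the forward strand. Capitals mark 3 motifs searched on both strands. They are CACCC, bound by factors of the *Klf* family, the CCAAT box and the GATA motif, which was searched as AGATAA or else as TGATAA, and with a final G as AGATAG or else as TGATAG.
Hbb-y: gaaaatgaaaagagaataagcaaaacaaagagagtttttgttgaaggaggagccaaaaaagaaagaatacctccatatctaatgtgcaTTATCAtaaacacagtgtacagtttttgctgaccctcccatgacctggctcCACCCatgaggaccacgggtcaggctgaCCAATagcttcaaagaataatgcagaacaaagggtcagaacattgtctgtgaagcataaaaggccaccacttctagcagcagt
Hbb-bs: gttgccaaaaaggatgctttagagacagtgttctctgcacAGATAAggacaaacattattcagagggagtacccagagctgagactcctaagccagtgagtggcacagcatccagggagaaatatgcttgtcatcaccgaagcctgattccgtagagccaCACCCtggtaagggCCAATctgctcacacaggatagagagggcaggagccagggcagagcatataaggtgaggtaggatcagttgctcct
Hbb-bt: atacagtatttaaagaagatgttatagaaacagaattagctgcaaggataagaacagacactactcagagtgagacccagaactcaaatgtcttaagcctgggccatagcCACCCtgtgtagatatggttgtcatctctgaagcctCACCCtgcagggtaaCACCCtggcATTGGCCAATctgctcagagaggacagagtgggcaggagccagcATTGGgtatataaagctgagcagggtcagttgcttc
Hba-x: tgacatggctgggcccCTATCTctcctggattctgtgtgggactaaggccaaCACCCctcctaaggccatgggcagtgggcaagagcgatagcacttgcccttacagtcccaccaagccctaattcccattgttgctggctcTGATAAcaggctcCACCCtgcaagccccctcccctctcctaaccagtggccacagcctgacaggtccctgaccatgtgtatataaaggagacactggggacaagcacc
Hba-a1: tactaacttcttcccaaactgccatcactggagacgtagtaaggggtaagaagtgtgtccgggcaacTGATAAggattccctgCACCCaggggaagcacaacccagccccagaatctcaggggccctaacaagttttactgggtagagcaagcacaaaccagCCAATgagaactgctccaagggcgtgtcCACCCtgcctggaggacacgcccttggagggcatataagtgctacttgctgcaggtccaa
CACCC was found in each of the 5 windows, CCAAT in all but that of *Hba-x* and the GATA motif in all but that of *Hbb-bt*. *Hbb-bt* held 3 CACCC and 3 CCAAT motifs, where *Hbb-bs* and *Hbb-y* held 1 of each. Of 32851 such windows over the genome, 52.0% held CACCC, 33.8% CCAAT and 26.5% the GATA motif, so that each motif is common.

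Members of a locus are alike enough to matter for counting. The coding sequences of *Hba-a1* and *Hba-a2* were identical in 428 of 429 bases and their transcripts in all 74 aligned bases after the coding region, and their windows before the start in all 247 aligned bases. *Hbb-bt* and *Hbb-bs* were identical in 443 of 444 coding bases, but only in 93 of 129 aligned bases (72.1%) after the coding region and in 175 of 244 (71.7%) before the start. The assay reads transcript ends, and how the counting treated reads that match both copies is not given in the sources used here. The split between *Hba-a1* and *Hba-a2* is therefore uncertain. That between *Hbb-bt* and *Hbb-bs* is uncertain as well for reads from coding sequence, and the parts of the transcripts before the coding region were not compared. If reads matching both copies were left out, the sum of each pair would be too low as well, which was not tested. *Hba-x* and *Hba-a1* were identical in 272 of 425 aligned coding bases (64.0%) and *Hbb-y* and *Hbb-bh1* in 339 of 444 (76.4%).

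The libraries held 169361996 to 259775540 UMIs over 8877 to 18488 barcodes, and 33419 cells were kept. Libraries 5 and 6 held cells that libraries 7 and 8 nearly lacked, such as a cluster led by *Cxcl13* and *Barx1* with 535, 560, 1 and 2 cells in libraries 5, 6, 7 and 8. Pairs of libraries shared 12 to 29 kept barcodes. *Tek* checked the labels: in endothelial and endocardial cells its CPM (the count scaled to a fixed total per library) was 80.8 in library 5 and 99.1 in library 7, the controls, and 35.6 in library 6 and 26.7 in library 8. The log2 fold change was -1.53 with a standard error of 0.19 (adjusted p = 0.685 by edgeR's quasi-likelihood test over all genes). It is lower in both *Tie2-cko* libraries, as the labels say, though not past the threshold over this mixed class. The class leaves out an unnamed cluster with *Nfatc1* among its leading genes.

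Red blood cells were defined as kept cells with at least 500 *Hbb-y* UMIs per 10000 UMIs, so that *Hbb-y* chose them and its level in them is a description. There were 2554 of them, 1179 and 669 from the controls (libraries 5 and 7) and 513 and 193 from *Tie2-cko* hearts (libraries 6 and 8). Their share differed by -4.23 percentage points between *Tie2-cko* and control libraries, which overlapped (exact permutation test, two-sided p = 0.667). *Tie2-cko* library 8 held the fewest, and without it the difference was -0.772 points. The median red blood cell held 32938, 59308, 22824 and 31798 UMIs in libraries 5, 6, 7 and 8, so that *Tie2-cko* library 6 was the deepest. The label was checked with markers other than globins: 7 erythroid genes, among them *Alas2*, *Slc4a1* and *Klf1*, summed to 14.9 to 16.0 UMIs per 10000 in these cells and to 0.0315 to 0.167 in cardiomyocytes of the same libraries.

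Few cells lay near the limit of 500 except below it in control library 5. Just inside it, at 500 to 1000 *Hbb-y* UMIs per 10000, stood 28, 10, 7 and 12 cells of libraries 5, 6, 7 and 8, in which 8 cardiomyocyte markers summed to 29.2 to 58.4 UMIs per 10000 against 2.40 to 4.73 in cells at 1000 or more. Just outside, at 250 to 500, stood 533, 10, 16 and 10 cells. The 533 of control library 5 had a median of 1198 UMIs, and 482 of them fell into clusters of few UMIs. The same 7 erythroid genes summed there to 1.44 UMIs per 10000, against 15.1 in the cells of that library at 1000 or more.

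*Hbb-y* was the highest globin in red blood cells, with a mean over cells of 1947 UMIs per 10000 in control library 5, 1997 in control library 7, 1771 in *Tie2-cko* library 6 and 1874 in *Tie2-cko* library 8. *Hbb-bh1*, the other embryonic beta-type gene, stood at 446, 492, 486 and 512 in the same order. Nearly all of the beta-type UMIs thus came from the embryonic genes, *Hbb-y* over *Hbb-bh1* in every library. Among beta-type UMIs the share of *Hbb-bh1* was 18.7% in control library 5, 19.8% in control library 7, 21.1% in *Tie2-cko* library 6 and 21.4% in *Tie2-cko* library 8. The difference of 1.99 percentage points (19.3 ± 0.812% against 21.2 ± 0.190%, SD, n = 2 libraries each) exceeded the spread within a genotype, and the genotypes did not overlap, but with 2 libraries on each side an exact permutation test cannot give less than 0.333 (two-sided), which is the p it had. It ran from 1.41 points without control library 5 to 2.56 points without control library 7. The ratio of *Hbb-y* to *Hbb-bh1* was 4.25 and 3.89 in control and 3.65 and 3.55 in *Tie2-cko* libraries (exact p = 0.333). Because *Hbb-y* chose the cells and is part of both the share and the ratio, these comparisons are descriptions. With cells chosen instead by *Hba-x* at 300 or more UMIs per 10000, the difference in the *Hbb-bh1* share was 1.98 points. That rule chose 1180, 514, 668 and 184 cells in libraries 5, 6, 7 and 8, nearly the numbers chosen by *Hbb-y*. A like result therefore says little about the choice.

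The adult beta genes formed a small part. *Hbb-bt* stood at 39.0 (library 5) and 68.6 (library 7) UMIs per 10000 in control hearts and at 31.8 (library 6) and 57.4 (library 8) in *Tie2-cko* hearts. *Hbb-bs* stood at 9.58 and 9.66 in control and at 9.43 and 11.5 in *Tie2-cko* libraries, the lowest of the 7 genes in each library. *Hbb-bt* was lower in libraries 5 and 6 than in libraries 7 and 8, across the genotypes, whereas *Hbb-bs* stayed within a narrow range. The ratio of *Hbb-bt* to *Hbb-bs* was 3.97, 3.83, 7.09 and 4.60 in libraries 5, 6, 7 and 8, and is subject to the uncertain split of these genes. Together the adult genes made up 1.93% and 3.06% of beta-type UMIs in control and 1.80% and 2.79% in *Tie2-cko* libraries, with overlap between the genotypes (difference -0.201 points, exact p = 0.667). At least 1 *Hbb-bt* UMI was found in 95.9% to 99.3% and at least 1 *Hbb-bs* UMI in 86.5% to 91.8% of the red blood cells of a library. The median cell held 21.1 to 50.8 *Hbb-bt* and 3.45 to 4.39 *Hbb-bs* UMIs per 10000, both below the means over cells.

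**Figure D1:**
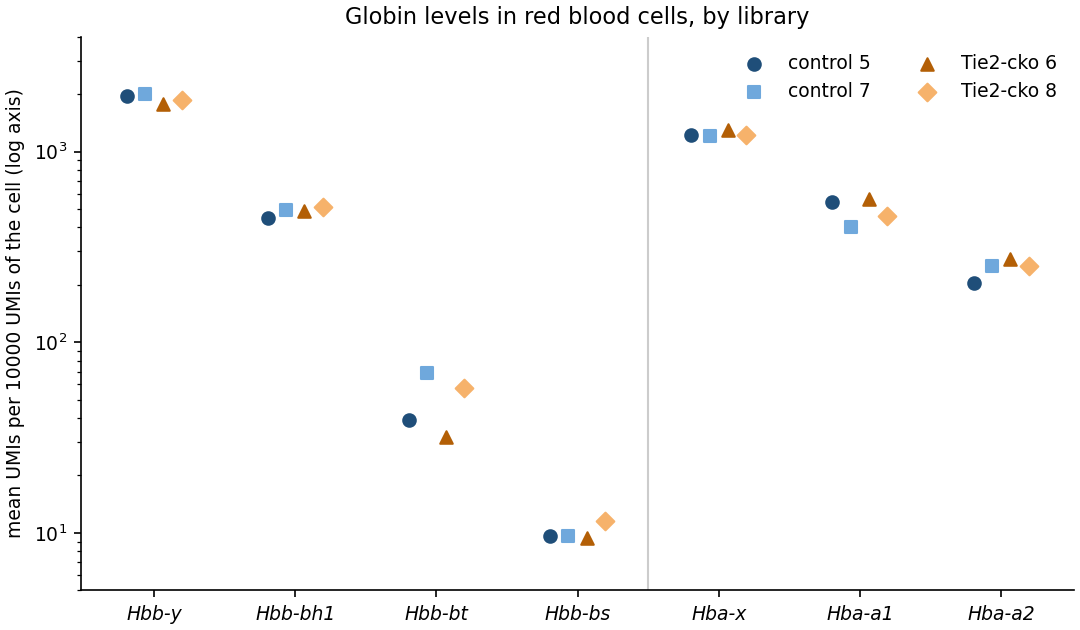
Mean level of each globin in red blood cells, in UMIs per 10000 UMIs of a cell on a log axis, with 1 point per library and the beta-type genes left of the line. *Hbb-y* lies between 1771 and 1997 and *Hbb-bs* between 9.43 and 11.5, and the spread over libraries is widest for *Hbb-bt*.

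Among alpha-type genes the embryonic *Hba-x* led, with 1220 (library 5) and 1212 (library 7) UMIs per 10000 in control hearts and 1294 (library 6) and 1227 (library 8) in *Tie2-cko* hearts. *Hba-a1* followed at 545 and 399 in control and 564 and 458 in *Tie2-cko* libraries, and *Hba-a2* at 205 and 250.4 in control and 275 and 250.4 in *Tie2-cko* libraries. Unlike the adult beta genes, the adult alpha genes were abundant. They made up 37.6% and 33.8% of alpha-type UMIs in control and 38.8% and 35.6% in *Tie2-cko* libraries. *Hba-x* accordingly made up 62.4% and 66.2% in control and 61.2% and 64.4% in *Tie2-cko* libraries (difference -1.53 points, exact p = 0.667). For *Hba-x* too libraries 5 and 6 lay on one side of libraries 7 and 8, at lower values. The ratio of *Hba-a1* to *Hba-a2* was 2.62, 2.06, 1.60 and 1.85 in libraries 5, 6, 7 and 8, and is subject to the uncertain split of this pair.

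**Figure D2:**
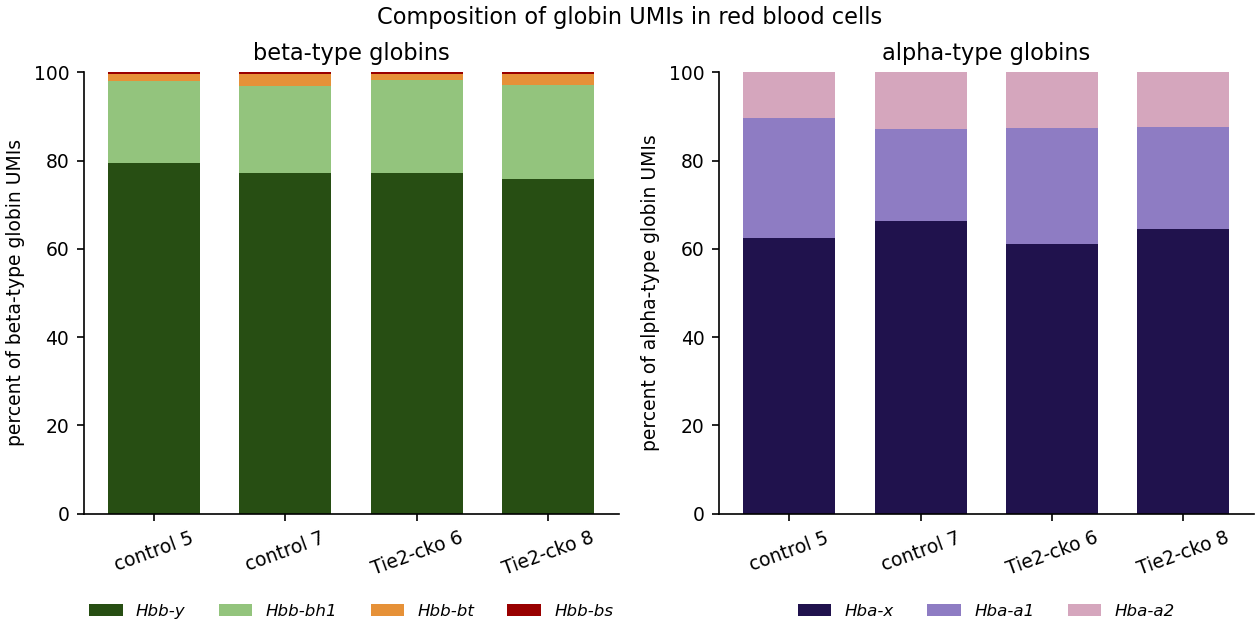
Composition of the globin UMIs of red blood cells, in percent of the beta-type UMIs (left) and of the alpha-type UMIs (right), with 1 bar per library. *Hbb-y* and *Hbb-bh1* fill all but 1.80% to 3.06% of the beta-type bars, while the adult alpha genes take 33.8% to 38.8% of the alpha-type bars.

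The summed level of the 7 genes hardly varied. Per 10000 UMIs it came to 4412, 4431, 4430 and 4390 in libraries 5, 6, 7 and 8, so that 43.9% to 44.3% of the UMIs of a red blood cell were globin (difference -0.102 points, exact p = 1). Alpha-type genes supplied 45.4% and 43.4% of these UMIs in control and 48.4% and 45.2% in *Tie2-cko* libraries (difference 2.43 points, exact p = 0.667). Without *Tie2-cko* library 6 this difference was 0.845 points, and without *Tie2-cko* library 8 it was 4.01 points. In the order of the levels, *Hbb-y*, *Hba-x* and then *Hba-a1* or *Hbb-bh1* came first and *Hba-a2*, *Hbb-bt* and *Hbb-bs* last in every library. *Hba-a1* and *Hbb-bh1* exchanged places between libraries (545 against 446 in library 5, 399 against 492 in library 7), and these neighbours did not differ beyond the spread between libraries.

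Single red blood cells varied around these means. From the 5th to the 95th percentile of cells, the *Hbb-bh1* share of beta-type UMIs ran from 11.7% to 23.3% in control library 5, from 11.2% to 26.2% in control library 7, from 16.0% to 26.6% in *Tie2-cko* library 6 and from 13.0% to 28.1% in *Tie2-cko* library 8. The adult beta share ran from 0.107% at the lowest 5th percentile to 7.49% at the highest 95th percentile of a library. An adult share over 10% was found in 13 of 2554 red blood cells, which were chosen for high *Hbb-y*. The alpha-type share of globin UMIs was related to depth within a library: its median went from the third of cells with the fewest UMIs to the third with the most from 42.1% to 46.5% in library 5, from 47.1% to 49.0% in library 6 and from 38.2% to 45.0% in library 7, and in library 8 it was 40.2% and 45.6%. The Spearman correlation over cells between this share and the cell's UMIs was 0.51, 0.28, 0.72 and 0.67 in libraries 5, 6, 7 and 8 (1179, 513, 669 and 193 cells). The *Hba-x* share of alpha-type UMIs went the same way (0.26, 0.19, 0.52 and 0.49). So did the *Hbb-bh1* share of beta-type UMIs, but hardly in library 6 (0.21, 0.007, 0.31 and 0.24). From the third with the fewest UMIs to that with the most, its median went from 17.4% to 18.9%, 21.2% to 21.1%, 17.0% to 21.0% and 20.1% to 22.6% in libraries 5, 6, 7 and 8. Whether depth bears on the difference between the genotypes in this share was not tested. Across cells the *Hbb-bh1* share was lower where the adult share was higher (-0.32, -0.26, -0.27 and -0.35). These correlations are descriptions, since cells of a library share its source and the shares of 1 cell share a denominator.

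To compare the genotypes with all genes in view, UMI counts were summed over the red blood cells of each library and fitted with edgeR. Of 10702 genes tested, 0 (0%) passed an adjusted p of 0.05 and 158 had an unadjusted p under 0.05, while DESeq2 also gave 0. None of the 7 globins was called. Their log2 fold changes in *Tie2-cko* ran from -0.17 (*Hbb-bt*, standard error 0.33) to 0.24 (*Hba-a2*, standard error 0.11, unadjusted p = 0.0613 and adjusted p = 1.00 by edgeR's quasi-likelihood test), with a median of 0.14 against -0.01 over all genes. *Hba-x* and *Hba-a2* (2 of 7) had both *Tie2-cko* libraries above both controls, as 11.4% of all genes did, and 0 of 7 had them below, as 12.2% did. Lower with an unadjusted p under 0.05 were 0 of 7, against 1.35% of all genes. The log2 fold change of *Hbb-bh1* was 0.14 (standard error 0.11) and that of *Hbb-y* -0.04 (standard error 0.09). In CPM *Hbb-y* stood at 198355 and 193026 in control and 179884 and 200527 in *Tie2-cko* libraries, so that its lower mean per cell in both *Tie2-cko* libraries was not seen in the sums over cells.

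No other gene of the erythroid programme passed the test either. Of a list of 42 erythroid genes, 40 were tested in red blood cells and 0 were called, with a median log2 fold change of 0.08 and values from -0.76 to 0.29. Regulators of the globin loci were low but present. *Klf1*, which binds CACCC motifs, stood at 0.926 to 1.23 UMIs per 10000 and *Gata1*, the erythroid GATA factor, at 0.349 to 0.524. *Zbtb7a*, a repressor of embryonic-type globins in adult cells, stood at 0.207 to 0.260. *Bcl11a* and *Sox6*, repressors of the embryonic beta genes in definitive cells, and *Myb*, a factor of definitive progenitors, stood at or below 0.0396. Among the highest genes of the list were *Car2*, a carbonic anhydrase, at 9.95 and 12.4 in control and 11.4 and 11.6 in *Tie2-cko* libraries, and *Blvrb*, a biliverdin reductase, at 8.41 to 8.98. Each globin but *Hbb-bs* thus stood above every gene of this list in every library.

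Other members of the globin family were near absent from red blood cells. *Hbq1b* and *Hbq1a* (theta, at the alpha locus) stood at 0.129 to 0.286 and at 0.00491 to 0.0136 UMIs per 10000, and *Hbb-bh2*, at the beta locus, at 0.00346 to 0.0249. *Hbq1b* was higher in libraries 5 and 6 (0.273 and 0.286) than in libraries 7 and 8 (0.129 and 0.142), across the genotypes. Of the globins of other tissues, *Mb* (myoglobin, the oxygen store of muscle) stood at 0.355 to 0.446 in cardiomyocytes, *Cygb* (cytoglobin) at 0.00887 to 0.0928 in mesenchymal cells, and *Ngb* (neuroglobin) had no UMI in a red blood cell.

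Outside red blood cells the globins were found in each cell class, at levels that differed between libraries. Over all 30865 other kept cells the summed level of the 7 genes was 137 UMIs per 10000 in control library 5, 44.5 in control library 7, 36.6 in *Tie2-cko* library 6 and 16.6 in *Tie2-cko* library 8. Control library 5 stood far above the rest. Both *Tie2-cko* libraries lay below both controls (difference -64.2, two-sided exact permutation p = 0.333, which is the smallest possible), and the difference was -17.8 without control library 5 and -110 without control library 7. It was -33.2 under a stricter filter (1500 genes, 5% mitochondrial UMIs), -26.2 without cells at 100 or more *Hbb-y* UMIs per 10000 and -204 over all deposited barcodes. Medians over cells were 60.5 and 22.5 in control and 13.2 and 8.12 in *Tie2-cko* libraries.

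Per 10000 UMIs, the order of the libraries was the same in 5 classes of cells named from their markers. In cardiomyocytes the summed level per 10000 UMIs was 53.4, 22.3, 15.4 and 9.31 in libraries 5, 7, 6 and 8, the controls first. In endothelial and endocardial cells it was 73.9, 37.2, 15.7 and 14.6 in the same order, in mesenchymal cells 70.4, 33.5, 14.0 and 12.1, in epicardial cells 53.2, 23.0, 13.1 and 8.42 and in epithelial cells 108, 46.6, 27.0 and 17.3. The levels followed the order 5, 7, 6, 8 in each of these classes, and within a library epithelial cells stood highest of the 5. Of the smaller named classes, neural cells stood at 116, 62.0, 19.8 and 20.7 in libraries 5, 7, 6 and 8 (73, 14, 77 and 19 cells) and hepatic endoderm at 157, 35.1 and 41.1 in libraries 5, 6 and 8 (243, 316 and 52 cells), so that library 8 lay above library 6 in both. A cluster of the epithelial class led by *Wnt7b* held 78, 79, 0 and 1 cells in libraries 5, 6, 7 and 8, so that this class did not hold the same cells in each library. As a share of the level in red blood cells of the same library, cardiomyocytes held 1.21%, 0.505%, 0.348% and 0.212% and epithelial cells 2.46%, 1.05%, 0.610% and 0.394%. The clusters of few UMIs stood much higher, at 452 to 473 UMIs per 10000 in control library 5, 189 to 251 in control library 7, 77.4 to 158 in *Tie2-cko* library 6 and 72.3 to 114 in *Tie2-cko* library 8.

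**Figure D3:**
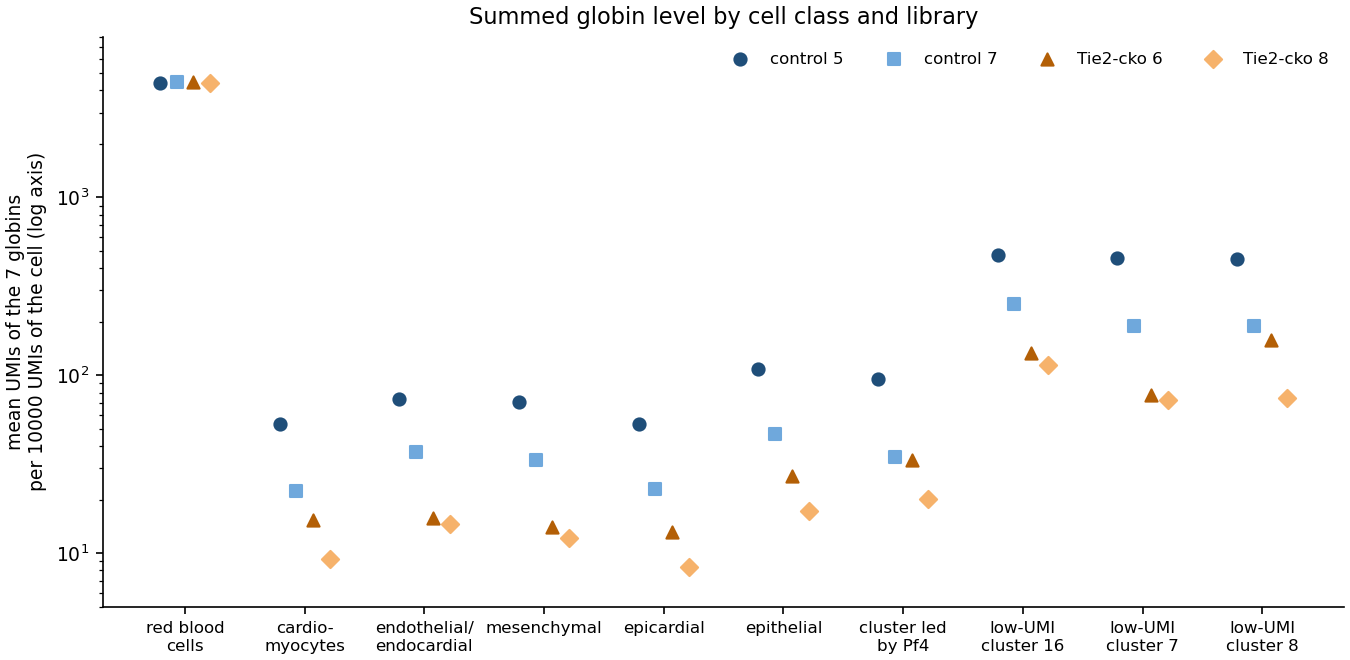
Mean summed level of the 7 globins by cell class, in UMIs per 10000 UMIs of a cell on a log axis, with 1 point per library. Red blood cells stand at 4390 to 4431 in all libraries, while in each other class control library 5 is highest, and the clusters of few UMIs lie above the named classes of the same library.

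In number, rather than per 10000 UMIs, the globin UMIs of a cell varied less between classes of a library than their depth did. The median cell of the 5 named classes held 94 to 124 globin UMIs in control library 5, 32 to 36 in control library 7, 30 to 49 in *Tie2-cko* library 6 and 14 to 15 in *Tie2-cko* library 8, although the median depth of these classes differed 2.14- to 2.33-fold within a library. The clusters of few UMIs, with median depths of 1305 to 2101 UMIs, held 75 to 77, 36 to 37, 12 to 17.5 and 12 to 14 globin UMIs in libraries 5, 7, 6 and 8. In libraries 7 and 8 a barcode thus held about the same number of globin UMIs whatever its class, while in libraries 5 and 6 the deeper classes held more. In number, library 6 was not below library 7 in cardiomyocytes (49 against 36 globin UMIs), epicardial (44 against 35), mesenchymal (34 against 32) and endothelial and endocardial cells (33 in both). In these classes the genotypes overlapped (exact permutation p = 0.667 in each). They did not overlap in epithelial cells (30 in library 6, 34 in library 7), nor over all other cells (31 and 35), each with exact permutation p = 0.333. Barcodes that did not pass the filters had median depths of 694 to 973 UMIs. They held a median of 70, 27, 13 and 12 globin UMIs in libraries 5, 7, 6 and 8, so that library 6 lay below library 7 and near library 8. In all, 80.7%, 87.1%, 93.7% and 81.2% of the globin UMIs of libraries 5, 7, 6 and 8 were in red blood cells and 5.24%, 3.98%, 1.90% and 4.99% in other kept cells. The level in other cells moved with the share of globin in all UMIs of a library, which was 8.16%, 4.63%, 6.45% and 1.55% in that order, except that library 6 lay below library 7. Free RNA in the droplets, red blood cells caught with another cell and RNA made by the cells themselves were not told apart, and the part of each was not tested.

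**Figure D4:**
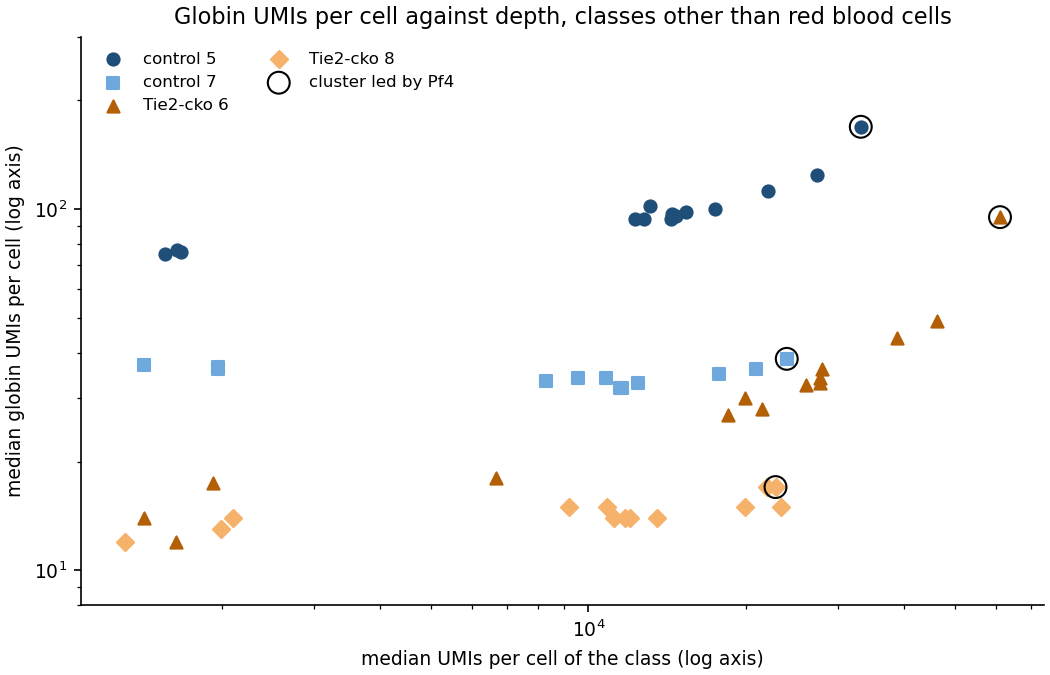
Median number of globin UMIs per cell against the median UMIs per cell, for each class or cluster other than red blood cells and each library, both on log axes. The points of libraries 7 and 8 lie nearly level (32 to 36 and 14 to 15 globin UMIs for the 5 named classes), those of libraries 5 and 6 rise with depth (94 to 124 and 30 to 49), and the cluster led by *Pf4*, circled, is the highest point of libraries 5, 6 and 7.

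In the fits over all genes, the lower globin levels of the *Tie2-cko* libraries outside red blood cells gave large fold changes. These did not pass the threshold in the main edgeR fit, while some did in other fits. No gene of 15626 tested in cardiomyocytes, 12041 in endothelial and endocardial cells, 13499 in mesenchymal cells and 11940 in epicardial cells had an adjusted p under 0.05 by edgeR (0% in each). An unadjusted p under 0.05 was found for 71, 561, 44 and 124 genes, and DESeq2 called 2, 7, 5 and 1, of which 1, 3, 4 and 1 were globins, all lower. In cardiomyocytes 6 of the 7 globins were lower with an unadjusted p under 0.05, against 0.23% of all genes. In endothelial and endocardial cells 7 of 7 were (background 1.8%), as in mesenchymal cells (0.2%) and epicardial cells (0.385%). Both *Tie2-cko* libraries lay below both controls for 6 of 7 globins in cardiomyocytes (8.12% of all genes) and for 7 of 7 in endothelial and endocardial (15.7%), mesenchymal (9.26%) and epicardial cells (11.4%). The 7 genes moved together in these cells, so that they are not 7 independent observations.

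The lack of calls depended on the model. With a block term that sets libraries 5 and 6 apart from 7 and 8, a division taken from earlier results of these data, edgeR called 7 of 7 globins lower in cardiomyocytes (0.243% of all genes), 5 of 7 in endothelial and endocardial cells (0.0997%), 7 of 7 in mesenchymal cells (0.363%) and 7 of 7 in epicardial cells (0.235%), each at an adjusted p under 0.05. Median log2 fold changes of the 7 were then -1.43, -1.82, -1.81 and -1.74. In all 4 classes each globin was lower in library 6 than in library 5 and in library 8 than in library 7. Without the filter on low counts, 7 of 7 were called lower in endothelial and endocardial cells (0.0904% of all genes).

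The median log2 fold change of the 7 globins was -1.57 in cardiomyocytes, -1.88 in endothelial and endocardial cells, -1.86 in mesenchymal cells and -1.86 in epicardial cells, against 0.01, 0.00, 0.01 and 0.00 over all genes. It was 0.14 in red blood cells. The smallest adjusted p was that of *Hbb-bt* in epicardial cells, which stood at 44.7 and 38.2 CPM in controls and at 6.37 and 9.77 CPM in *Tie2-cko* (libraries 5, 7, 6 and 8). Its log2 fold change was -2.31 with a standard error of 0.21 (adjusted p = 0.0668 by edgeR's quasi-likelihood test). For *Hbb-y* in the same cells the values in CPM were 2234 and 996 in control and 488 and 324 in *Tie2-cko* libraries (log2 fold change -1.99, standard error 0.37, adjusted p = 1.00 by edgeR). In endothelial and endocardial cells *Hba-a2* stood at 298 and 182 CPM in control and 79.7 and 73.9 in *Tie2-cko* libraries (log2 fold change -1.64, standard error 0.23, adjusted p = 0.685 by edgeR). Control library 5 was the highest for each of the 3. Without it the median over the 7 globins shrank to -0.71 in cardiomyocytes, -1.26 in endothelial and endocardial cells, -1.26 in mesenchymal cells and -1.11 in epicardial cells. Without control library 7 this median was -2.09, -2.30, -2.23 and -2.38 in the same order of classes. It was -2.09, -1.90, -2.12 and -2.09 without *Tie2-cko* library 6 and -1.21, -1.85, -1.67 and -1.57 without *Tie2-cko* library 8. Which globins were called changed with the library left out, and such fits leave a genotype with a single library.

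The mixture of globins in other cells differed by a few percentage points from that of the red blood cells of the same library. The direction for *Hbb-bh1* and *Hba-a1* depended on the cells, as did that for *Hba-x* in *Tie2-cko* library 6. In cardiomyocytes *Hbb-bh1* made up 16.7%, 18.3%, 18.8% and 19.0% of beta-type UMIs in libraries 5, 6, 7 and 8, against 18.7%, 21.1%, 19.8% and 21.4% in red blood cells. It was lower in all 4 libraries, by 2.06 points on average (exact sign-flip permutation over the 4 libraries, two-sided p = 0.125, the smallest possible). The same held in endothelial and endocardial cells (by 3.09 points), mesenchymal cells (2.09), epicardial cells (2.18) and epithelial cells (1.48), each lower in 4 of 4 libraries (exact p = 0.125). Over all other cells the difference was -1.05 points, lower in 3 of 4 libraries and higher in *Tie2-cko* library 6 (exact p = 0.25). Left without the cluster led by *Pf4*, an alternative chosen after seeing the data, it was -1.86 points and lower in all 4 (exact p = 0.125). Over all deposited barcodes it was -0.301 points and lower in 2 of 4 libraries (exact p = 0.625). Barcodes of few UMIs went the other way: *Hbb-bh1* was higher than in red blood cells by 0.784 points in the clusters of few UMIs (3 of 4 libraries, exact p = 0.375) and by 1.56 points in the barcodes that did not pass the filters (4 of 4, exact p = 0.125).

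*Hba-a2* took a larger part of the alpha-type UMIs in other cells, 12.1%, 16.0%, 17.5% and 17.0% in libraries 5, 6, 7 and 8 against 10.4%, 12.7%, 13.0% and 12.5% in red blood cells. The excess was 3.54 points on average and present in 4 of 4 libraries (exact p = 0.125). All values for *Hba-a2* and *Hba-a1* here are subject to the uncertain split of this pair. *Hba-x* was lower by 2.25 points and *Hba-a1* by 1.29 points, each in 4 of 4 libraries (exact p = 0.125), and the alpha-type share of all globin UMIs was lower by 2.82 points, also in 4 of 4 (exact p = 0.125). In cardiomyocytes alone *Hba-x* was lower by 1.39 points, in 3 of 4 libraries, and higher by 1.09 points in *Tie2-cko* library 6 (exact sign-flip p = 0.25). In the clusters of few UMIs *Hba-x* and the alpha-type share were lower too, by 3.83 and 3.41 points (each 4 of 4, exact p = 0.125), but *Hba-a1* was higher by 1.89 points (4 of 4, exact p = 0.125) and *Hba-a2* by 1.94 points in 3 of 4 libraries (exact p = 0.25). The adult beta share differed in no common direction (0.714 points, higher in libraries 5 and 6 and lower in libraries 7 and 8, exact p = 0.5), and in cardiomyocytes it was 2.11%, 1.87%, 2.91% and 2.51%, between -0.283 and 0.186 points from the red blood cells. As *Hbb-y* chose the red blood cells, the shares were also taken with cells chosen by *Hba-x* at 300 or more UMIs per 10000. The *Hba-x* share then differed by -2.52 points and that of *Hbb-bh1* by -0.984 points. Here *Hba-x* both chose the cells and is part of its own share, so that the first value is a description. Since this rule chose nearly the same numbers of cells as *Hbb-y*, the second says little about the choice.

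How many cells held a globin UMI differed between libraries and, for the adult beta genes, also between the cluster led by *Pf4* and other classes. After each cell was thinned to 5000 UMIs, *Hbb-y* was found in 99.97% of cardiomyocytes of control library 5, 95.6% of control library 7, 88.1% of *Tie2-cko* library 6 and 74.9% of *Tie2-cko* library 8, and in 100%, 97.7%, 88.5% and 88.8% of endothelial and endocardial cells. This left out 57, 61, 152 and 61 cardiomyocytes and 22, 43, 17 and 28 endothelial and endocardial cells. *Hbb-bt*, the higher of the adult beta genes, was found in 19.9%, 15.1%, 4.14% and 4.74% of cardiomyocytes of libraries 5, 7, 6 and 8 and *Hbb-bs* in 4.92%, 2.13%, 0.781% and 0.885%. In the cluster led by *Pf4* the values in the same order were 45.1%, 13.0%, 38.1% and 21.4% for *Hbb-bt* and 23.0%, 0%, 24.6% and 0% for *Hbb-bs* (235, 23, 134 and 28 cells). Without thinning, *Hbb-y* was found in 99.2% to 100% of cardiomyocytes at median depths of 20920.5 to 46340.5 UMIs, and *Hbb-bt* in 17.5% to 68.3%. No class was free of globin UMIs, and where they came from was not tested, so that no expression is read from these shares.

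The cluster led by *Pf4*, *Tyrobp* and *Fcer1g* stood apart in its mixture. It held 250, 145, 26 and 35 cells in libraries 5, 6, 7 and 8, and was clustered without the globins. *Hbb-y* made up 63.1%, 29.2%, 72.7% and 49.0% of its beta-type UMIs, below the red blood cells of each library, and *Hbb-bh1* 25.0%, 45.7%, 22.5% and 33.3%. The adult share was 11.9%, 25.2%, 4.77% and 17.7%, where red blood cells had 1.93%, 1.80%, 3.06% and 2.79%. Of its 397 cells with at least 20 beta-type UMIs, 129 (32.5%) had an adult share over 10%, compared with 13 of 2554 red blood cells (0.509%) and 130 of 11177 cells (1.16%) of the 7 other named classes. In 94 of the 397 (23.7%) *Hbb-y* was under 50% of beta-type UMIs. The count for red blood cells, which was 0, says nothing here, since *Hbb-y* chose them, and their low adult share is subject to the same choice.

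Its cells fell into groups by other genes, in a division that was chosen after their values were seen and carries no test. Of 456 cells, 338 held UMIs of *Klf1*, *Gata1* or *Myb* (regulators of erythroid cells and blood progenitors) and none of *C1qb*, *Csf1r* or *Cx3cr1* (genes of macrophages), 67 held the reverse, 29 held both and 22 neither. In the first group the adult share was 12.9%, 26.5%, 5.83% and 25.3% of beta-type UMIs in libraries 5, 6, 7 and 8 (195, 116, 11 and 16 cells), and in the second 2.27%, 1.27%, 4.25% and 2.78% (31, 10, 11 and 15 cells). The first group was not alike in each library. Its *Pf4* stood at 8.27, 14.5, 0.0907 and 59.6 UMIs per 10000 in libraries 5, 6, 7 and 8 and its *Klf1* at 1.07, 1.38, 0.135 and 0.369. Its adult shares may therefore describe different cells. *Hbb-bs* alone made up 12.2% of beta-type UMIs in the first group of *Tie2-cko* library 6 and 0.372% in its red blood cells. The first group of this library also had the largest share of *Hbb-bh1*, 47.3%, and its share of *Hba-x* among alpha-type UMIs was 45.5% against 61.2% in red blood cells. The summed level of the 7 genes in the first group was 78.6, 36.2, 35.5 and 9.45 UMIs per 10000 in libraries 5, 6, 7 and 8. This lay within the range of the 5 named classes in libraries 5, 7 and 8 and above it in *Tie2-cko* library 6, where those classes stood at 13.1 to 27.0. How much of these UMIs came from the cells themselves was not tested. In control library 7 and *Tie2-cko* library 8 they rest on 11 and 16 cells.

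**Figure D5:**
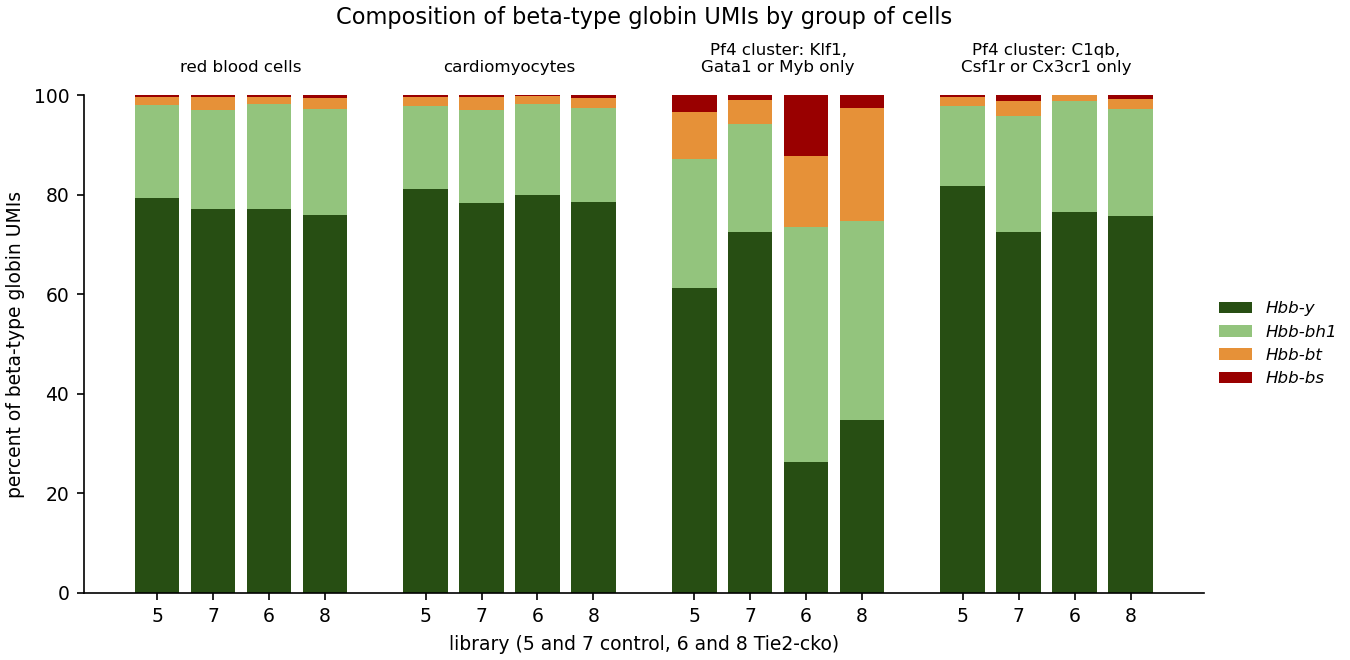
Composition of the beta-type globin UMIs, in percent, in red blood cells, cardiomyocytes and 2 groups of cells of the cluster led by *Pf4*, with 1 bar per library. Cells with *Klf1*, *Gata1* or *Myb* only carry 5.83% to 26.5% adult beta UMIs, against 1.80% to 3.06% in red blood cells, while cells with *C1qb*, *Csf1r* or *Cx3cr1* only carry 1.27% to 4.25%.

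The genes whose levels followed the globins most closely were taken over 35 points, each the mean of a cell class in a library, on the log2 scale. Among them were *Pdzk1ip1* (Pearson r = 0.95), the anion exchanger *Slc4a1* (0.94), the blood group gene *Kel* (0.94), the mitochondrial iron importer *Slc25a37* (0.93), *Trim10* (0.93), the first enzyme of erythroid haem synthesis *Alas2* (0.92), *Hemgn* (0.92), *Csf2rb2* (0.92) and *Hbq1b* (0.92). The points share libraries and the 4 red blood cell points lie far from the rest, so that r is a description. Over the 31 points without red blood cells it ranged among these genes from 0.39 for *Csf2rb2* to 0.67 for *Pdzk1ip1*. In cardiomyocytes *Slc4a1* stood at 0.0285, 0.00846, 0.00647 and 0.00493 UMIs per 10000 in libraries 5, 7, 6 and 8, the order of the globins there. *Alas2* stood at 0.0416, 0.0124, 0.0145 and 0.00659 and *Hemgn* at 0.0252, 0.00958, 0.0179 and 0.00366, with library 6 above library 7.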

How the data were processed

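The deposited matrices held raw UMI counts per gene and barcode, made by the authors with Cell Ranger 6.1.2 (by the file headers; the methods name another version) on mm10 (by the submitters' processing notes). How reads matching 2 genes were treated is not given in the sources used here. Barcodes were kept from 500 genes and 1000 UMIs upwards, with up to 10% mitochondrial UMIs, and doublets were removed at 0.8% per 1000 barcodes. Cells under 500 *Hbb-y* UMIs per 10000 were clustered without the globins in Seurat 5.3.0 (2000 variable genes, 30 principal components, 20 neighbours, resolution 0.8). Of 25 clusters, 3 were of few UMIs and 3 stayed unnamed. Among the unnamed was a cluster of 1182 cells with *Nfatc1* among its leading genes. It held a share of 0.875 of the endothelial and endocardial markers but is not part of that class here. Shares are ratios of summed UMIs per library. Libraries were compared by exact permutation in Python 3.11.15. Counts summed per library and class were fitted with edgeR 4.0.16 (quasi-likelihood, TMM, filterByExpr, Benjamini-Hochberg threshold 0.05), with DESeq2 1.42.0 as an alternative, after tests on simulated data. Since the methods place the 2 hearts of each genotype in the same litter, p-values measure the spread between these libraries and not between litters. Intervals and detection shares cover counting error only.

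The genes named are the 7 globins, the other globin-family genes, 6 regulators and the 3 highest genes of a 42-gene erythroid list, and the 10 genes most like the summed globin level (log2 of UMIs per 10000 plus 0.01, minimum level 0.05). Of that list 1 gene is not analysed here, and some genes that this rule names are not reported here. Genes, lists and classes were chosen with earlier results of these data known. Promoter windows came from RefSeq on GRCm38.p6 (6 of 7 globins matched). Alternatives covered the filters, doublets, the red blood cell threshold, averaging, normalization, a block for libraries 5 and 6 against 7 and 8 (a division taken from earlier results) and leaving out each library.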

Additional observations from a re-analysis of the deposited data

How the results depend on the processing

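No paired analysis was possible because the genotypes share no replicate number in the labels, and no source says which libraries were matched. The block for libraries 5 and 6 against 7 and 8 follows a division seen in these data, not a pairing given by the design. With 2 libraries per genotype no permutation p between the genotypes can fall below 0.333, so that thresholds could be crossed only in the fits over all genes. The main edgeR fit called 0 genes in each class. Without the filter on low counts 22 genes were called in red blood cells and 27 in endothelial and endocardial cells, in the latter all 7 globins. With the block for libraries 5 and 6 against 7 and 8, 4 were called in red blood cells, 55 in cardiomyocytes, 28 in endothelial and endocardial, 149 in mesenchymal and 56 in epicardial cells, of which 0, 7, 5, 7 and 7 were globins. DESeq2 called 2 in cardiomyocytes, 7 in endothelial and endocardial, 5 in mesenchymal and 1 in epicardial cells. Leaving out a library gave 0 to 25 calls in red blood cells, 0 to 4 in cardiomyocytes, 0 to 155 in endothelial and endocardial, 0 to 0 in mesenchymal and 1 to 58 in epicardial cells. A library left alone in its genotype is assumed there to vary like the others.

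The difference in the adult beta share of red blood cells ran from -0.766 to 0.364 points when a library was left out, turning positive without *Tie2-cko* library 6 (0.294) and without control library 7 (0.364). That in the *Hba-x* share ran from -3.46 to 0.400, turning positive without library 6 (0.0731) and without library 7 (0.400). The other differences kept their sign: -7.70 to -0.772 points for the share of red blood cells, 1.41 to 2.56 for *Hbb-bh1*, 0.845 to 4.01 for the alpha-type share, -110 to -17.8 UMIs per 10000 for the level in other cells, -1.54 to -0.656 points for *Hbb-bh1* and -2.58 to -1.98 for *Hba-x* in other cells against red blood cells. In the red blood cell fit, log2 fold changes turned sign for *Hbb-bt* (0.19 without library 6 and 0.30 without library 7, in a range from -0.66), *Hbb-bs* (-0.13 without library 8, in a range up to 0.46), *Hbb-y* (0.037 without doublet removal and 0.034 without library 6, in a range from -0.11) and *Hba-a1* (-0.048 without library 7, in a range up to 0.43). The cause was not tested.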

Other observations

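A few barcodes under the minimum of 500 genes carried mostly adult beta globin. Such barcodes cannot count as red blood cells here, which were chosen by *Hbb-y*, and single kept cells with a mostly adult share occurred in other classes, at up to 88.7% of beta-type UMIs in mesenchymal cells and 84.4% in the cluster led by *Pf4*. There were 5 of them, singled out after their values were seen: 1, 1, 3 and 0 in libraries 5, 6, 7 and 8. They held 1131 to 2729 UMIs each, of which 41.0% to 69.5% were globin. *Hbb-bs* gave 268 UMIs in the barcode of library 5, 523 in that of library 6 and 1115, 319 and 286 in those of library 7. *Hbb-bs* and *Hbb-bt* together made up 88.6% to 99.1% of their beta-type UMIs, and *Hba-x* made up 1.59% to 6.16% of their alpha-type UMIs. Among all barcodes under the minimum, *Hbb-bs* made up 0.439% of beta-type UMIs in library 5, 2.67% in library 6 and 8.55% in library 7, and without these barcodes 0.325%, 0.310% and 0.434%. In library 8 the share was 0.364%. Where these barcodes came from was not tested.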
